A study of Mus musculus with 2 samples.

Results

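EP300 peaks near the genes of Wnt ligands, Frizzled receptors and the core of the canonical Wnt response were examined in hearts of newborn mice. The members are the 36 protein-coding genes of the mm10 GENCODE annotation whose symbol is Wnt or Fzd with a number, or Lrp5, Lrp6, Axin2, Lef1, Tcf7, Tcf7l1 or Tcf7l2. They comprise 19 ligands, 10 Frizzled receptors, 2 co-receptors, Axin2 and 4 TCF/LEF factors. A peak was assigned to a member when its summit lay within 100 kb of a protein-coding transcription start site (TSS) and the nearest such site belonged to that member. By this rule 30 of the 17339 peaks of the authors' optimal list on the main chromosomes were assigned to 15 of the 36 members. The rule is one of distance, not a measured link between a peak and a gene.

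The study mapped EP300 on DNA by ChIP-seq, in which chromatin bound by an antibody is sequenced, in heart tissue of the mouse strain labelled B6NCrl on postnatal day 0, with no treatment given in the labels and sex labelled as not collected. There was 1 group of 2 libraries, replicate 1 and replicate 2, and no second tissue, age or genotype, so no groups were compared and no test was made. Both libraries are labelled biological replicates, but they carry the same biosample and donor label. Agreement between them therefore shows how alike these libraries were, a spread that may be purely technical. Fewer cells with EP300 at a site and less EP300 per cell cannot be told apart in whole tissue. Peaks stood near heart muscle genes (78 peaks at 5 of 5 genes, Myh6, Tnnt2, Actc1, Actn2 and Ryr2) and near endothelial genes (23 peaks at 4 of 4, Kdr, Cdh5, Pecam1 and Tek). Of the markers of other organs, 1 of 3 liver genes had a peak (Ttr, 1 peak) and 1 of 3 neuronal genes (Rbfox3, 2 peaks), against 31.9% of all protein-coding genes. The stronger Rbfox3 peak had a signal value of 93.7. The strongest peaks of the heart muscle genes had 64.8 (Actc1) to 212.8 (Tnnt2). The peak lists carry no read counts and the depth of the libraries is therefore unknown. Replicate 1 held 11104 peaks with a −log10 q of at least 2 and replicate 2 held 3376.

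Wnt proteins are secreted, lipid-modified signals. In the canonical branch a Wnt binds a Frizzled receptor together with Lrp5 or Lrp6, the complex that marks β-catenin for destruction is switched off, and β-catenin enters the nucleus, where it joins a TCF/LEF factor on DNA. EP300 is a histone acetyltransferase and coactivator found at active enhancers and promoters, and it is among the coactivators that β-catenin recruits. Axin2 encodes a scaffold of the destruction complex and is itself switched on by the pathway, so it serves widely as a readout of Wnt activity. In the heart, canonical Wnt signals act in stages, favouring mesoderm early and restraining muscle differentiation later, and they act again in valves and vessels, while ligands such as Wnt11 and Wnt5a act mainly without β-catenin.

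The sequences under the strongest peak of each of the 5 roles are shown first, because the description of the peaks turns on them. They are plus-strand sequence of GRCm38 (mm10) in the 200 bp centred on the summit, in lower case, and capitals mark matches to 8 short motifs described further down. Of the Axin2 windows the bases of the untranslated exon are left out, which leaves 70 for the strongest peak. No capitals appear in 4 of these 5, since none of the motifs was found there.
Wnt9a, the strongest ligand peak, chr11:59338063-59338262: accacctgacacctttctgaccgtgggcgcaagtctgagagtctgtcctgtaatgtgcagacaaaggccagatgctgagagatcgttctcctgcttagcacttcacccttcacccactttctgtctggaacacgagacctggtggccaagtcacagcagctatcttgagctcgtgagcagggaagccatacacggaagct
Fzd4, the strongest Frizzled peak, chr7:89403494-89403693: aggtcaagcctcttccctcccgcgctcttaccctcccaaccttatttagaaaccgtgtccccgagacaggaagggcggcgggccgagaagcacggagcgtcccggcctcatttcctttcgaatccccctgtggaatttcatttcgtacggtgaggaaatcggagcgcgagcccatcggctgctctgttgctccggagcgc
Lrp5, the strongest co-receptor peak, chr19:3665648-3665847: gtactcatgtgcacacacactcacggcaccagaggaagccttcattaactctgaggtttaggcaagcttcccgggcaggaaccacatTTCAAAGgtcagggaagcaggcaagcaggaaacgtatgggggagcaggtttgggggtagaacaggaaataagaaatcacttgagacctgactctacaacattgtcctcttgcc
Axin2, the strongest peak, chr11:108920562-108920631: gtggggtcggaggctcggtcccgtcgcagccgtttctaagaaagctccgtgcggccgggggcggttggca
Tcf7l1, the strongest TCF/LEF peak, chr6:72789383-72789582: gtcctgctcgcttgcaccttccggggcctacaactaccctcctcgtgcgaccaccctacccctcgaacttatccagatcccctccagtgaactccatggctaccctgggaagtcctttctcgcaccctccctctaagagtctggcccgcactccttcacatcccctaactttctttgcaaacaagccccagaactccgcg

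A further 3 windows were chosen after their motif matches were seen. The second Axin2 window, of which 167 bases are shown, holds a TCF/LEF match in an Axin2 intron, just before a further start site of the gene. The Wnt8b window holds 3 copies of an E-box and a GATA match, and the Fzd4 window, which lies in coding sequence, holds an AP-1 and a MEF2 match.
Axin2, the second promoter peak, chr11:108920633-108920799: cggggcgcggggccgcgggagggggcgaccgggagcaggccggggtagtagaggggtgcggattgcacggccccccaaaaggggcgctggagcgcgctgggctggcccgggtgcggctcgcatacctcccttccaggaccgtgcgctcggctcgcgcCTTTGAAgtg
Wnt8b, the single peak, chr19:44519382-44519581: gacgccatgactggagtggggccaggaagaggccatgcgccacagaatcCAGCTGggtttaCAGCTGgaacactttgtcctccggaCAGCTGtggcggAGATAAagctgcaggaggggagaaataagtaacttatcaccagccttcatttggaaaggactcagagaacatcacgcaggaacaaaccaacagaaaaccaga
Fzd4, the exonic peak, chr7:89407461-89407660: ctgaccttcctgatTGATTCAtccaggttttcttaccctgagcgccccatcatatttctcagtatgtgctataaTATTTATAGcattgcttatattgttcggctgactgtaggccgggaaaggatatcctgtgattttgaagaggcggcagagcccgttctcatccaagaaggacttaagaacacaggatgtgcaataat

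EP300 peaks were found at members of every role. At least 1 peak was assigned to 15 of 36 members, or 41.7% (95% exact Clopper-Pearson interval 25.5% to 59.2%), where 31.9% of all 21829 protein-coding genes had a peak. A peak within 1 kb of a TSS, called promoter-proximal here, was assigned to 5 of 36 members, or 13.9%, against 19.0% of all genes. The members' share with a peak thus has the background inside its interval. Peaks were assigned to 5 of 19 ligands, 5 of 10 Frizzled receptors, both co-receptors, Axin2 and 2 of 4 TCF/LEF factors. The 31.9% of all genes lay inside the interval of each of these roles, and no difference between them was tested. Long stretches of DNA collect more peaks, and per megabase of DNA nearest to their start sites the members had 7.71 peaks, against 9.72 over all genes. Intervals of this kind cover counting error only, and neighbouring calls of one site are not independent: joining overlapping calls left 23 sites.

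**Figure D1:**
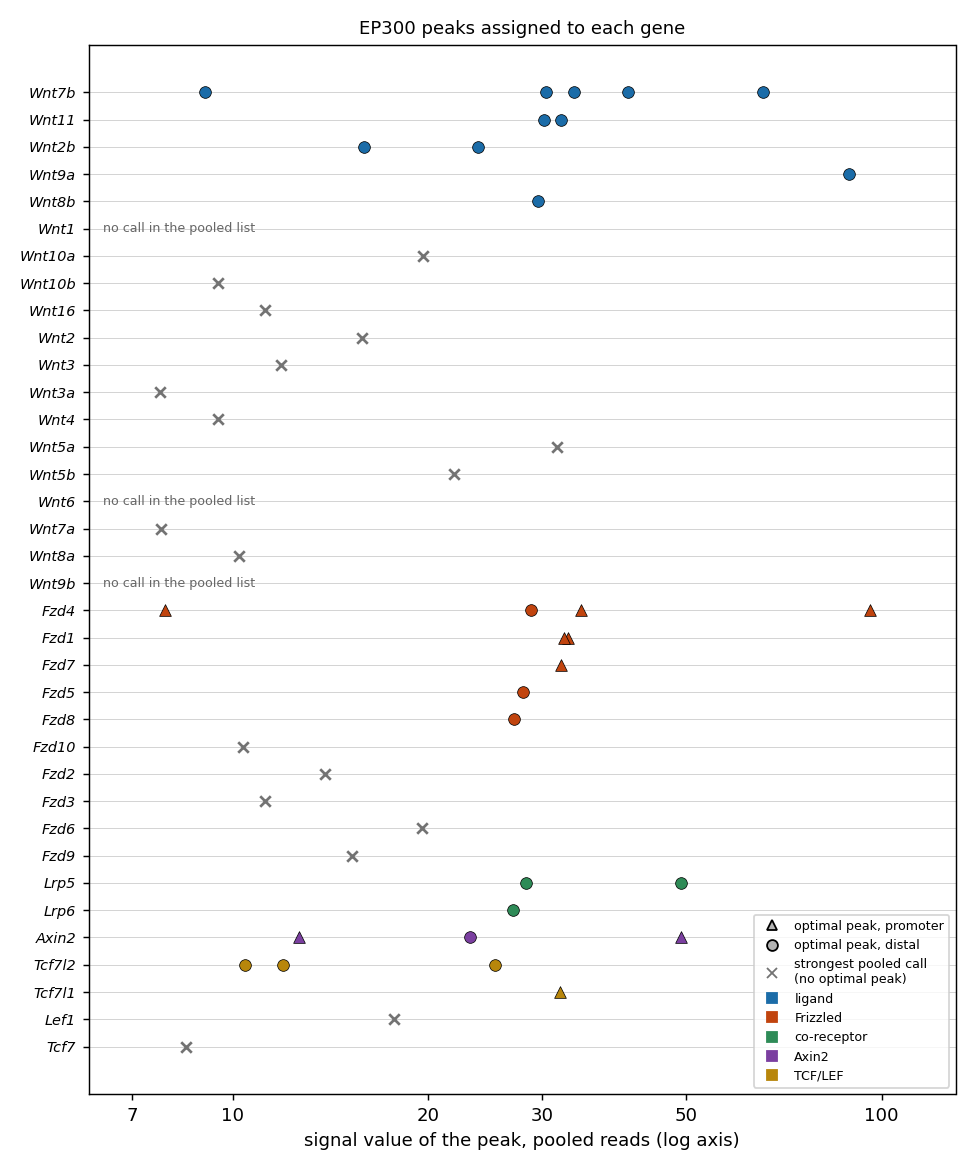
Each row is a member gene, grouped by role, and each filled symbol is an optimal peak assigned to it, placed by the authors' signal value on a log axis (triangles, summit within 1 kb of a TSS; circles, distal). Grey crosses give the strongest call of the pooled list for members without an optimal peak; Fzd4 at 96.1 and Wnt9a at 89.1 stand apart from the other members, and 14 ligands have no optimal peak.

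The authors' signal value of a peak, whose formula is not stated, was used only to rank peaks within a list. Signals of the 30 peaks ran between 7.86 and 96.1, with a median of 29.9, against a median of 30.6 over the 15570 peaks assigned to any gene. Only Fzd4 and Wnt9a had a peak among the first 1000 of the list, 2 of 30 peaks (6.67%), against 5.79% of all assigned peaks. A −log10 q of at least 2 was reached by 18 of 30 peaks (60%), against 57.5% of all assigned peaks. The weakest member peak, a Fzd4 call of 7.86, lay just above the lowest signal in the list, 6.91.

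The ligand peaks were all distal: 11 peaks in 9 sites at 5 of 19 genes, none of them within 1 kb of a TSS. Of these sites 4 were those of Wnt7b. Over all genes, 9760 of 15570 assigned peaks were distal. The median signal of the ligand peaks was 30.4. Wnt9a, known from joint formation in mouse limbs, had a single peak with the highest signal of any ligand, 89.1 (rank 576; chr11:59337915-59338410). It lay 31233 bp downstream of the Wnt9a TSS in intergenic DNA past the gene's end, and the next gene's TSS, of the protease gene Prss38, lay 37494 bp away. In the replicates' own lists it had a signal of 58.1 (rank 382) in replicate 1 and 18.9 (rank 4985) in replicate 2, so both held it among their leading peaks. Replicate 2 alone gave Wnt9a a further leading peak, 2 in all. Wnt3a, the neighbour of Wnt9a with a TSS 16176 bp away, had no optimal peak.

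Wnt7b, a ligand of lung, kidney and brain vessel development, had 5 peaks in 4 sites, the most of any member in the optimal list. Among the leading peaks of replicate 1 alone, as many by signal as the optimal list holds, it had 6, and among those of replicate 2 alone it had 3, where Tcf7l1 had 5 and Fzd4 had 4. All lay upstream of its TSS, in a stretch between 18126 and 71305 bp away. The strongest, 28409 bp upstream (chr15:85610634-85611129), had a signal of 65.5 and rank 1559, with 44.6 in replicate 1 and 23.6 in replicate 2. A weaker call of 9.05 overlapped it. The peak nearest to the gene had a signal of 40.7, with 22.7 in replicate 1 and 16.1 in replicate 2. The remaining pair, at 52425 and 71305 bp, had signals of 33.5 and 30.4 and were present in replicate 1 (24.1 and 21.3) without any summit within 100 bp in replicate 2. The most remote of them lay in introns of the long non-coding RNA genes Lncppara and Gm49539, with the TSS of Ppara, a nuclear receptor of fatty acid oxidation, at 81786 bp.

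Wnt11, which signals mainly without β-catenin and is needed for the outflow tract of the mouse heart, had 2 peaks of nearly equal signal. The first, of 32.0, lay in its own intron, 12507 bp downstream of a TSS (chr7:98851104-98851599), with 17.6 in replicate 1 and 13.3 in replicate 2. The second, of 30.2, lay 61213 bp downstream in an intron of Uvrag, an autophagy gene, with 14.5 in replicate 1 and 13.4 in replicate 2. Both were among the leading peaks of both replicates. A peak of 30.9, also in Uvrag, lay 146768 bp from the Wnt11 TSS and was therefore not assigned.

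Wnt2b, which acts with Wnt2 in specifying the mouse lung, had 2 overlapping upstream calls of 23.9 and 15.9, 31135 and 31369 bp from its TSS. The stronger (chr3:104992808-104993303) had 16.3 in replicate 1 but 6.00, at rank 92720, in replicate 2. Replicate 1 alone gave Wnt2b 1 leading peak and replicate 2 alone gave 2. Wnt8b, a ligand of the developing forebrain, had a single peak of 29.5 (chr19:44519234-44519729), with 21.0 in replicate 1 and 11.9 in replicate 2. That peak lay in an exon of Sec31b, a gene of vesicle transport, almost midway between the TSS of Wnt8b (26010 bp) and that of Sec31b (26365 bp), so a small difference in distance decided to which gene it was assigned.

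The Frizzled peaks, 9 at 5 of 10 genes, held most of the members' promoter peaks: 6 of 9, at Fzd4, Fzd1 and Fzd7. Fzd4, the receptor of Norrin and of Wnt ligands in vessel growth, had the strongest member peak, of 96.1 (rank 437; chr7:89403513-89403667), 761 bp upstream of its TSS. Replicate 1 gave it 59.1 (rank 361) and replicate 2 gave 33.7 (rank 1066). It lay in an intron of Tmem135, of which a transcript not annotated as coding starts in the Fzd4 promoter and runs away from Fzd4 on the opposite strand. The Tmem135 protein-coding TSS lay 64807 bp away.

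A second Fzd4 call of 34.4, 82 bp from the TSS, had 19.5 in replicate 1 and 9.78 in replicate 2, and a weak call of 7.86 lay between both. These 3 form 1 merged site. Fzd4 had 2 leading peaks in replicate 1 alone and 4 in replicate 2 alone. The fourth Fzd4 peak, of 28.8, lay 3206 bp downstream in the coding exon (chr7:89407313-89407808) and was the stronger in replicate 2, at 16.9 (rank 6465), against 13.2 (rank 17698) in replicate 1. Fzd4 thus held its highest signal just before the gene and a separate site inside it.

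Fzd1 and Fzd7 encode closely related receptors, and each had its signal at the promoter alone. Fzd1 had overlapping calls of 32.9 and 32.3, 6 and 208 bp upstream of the TSS (chr5:4757793-4758490 in all). Replicate 1 held the site at 26.2 (rank 4309), while replicate 2 held it at 8.96 and 8.36, below its leading peaks, so Fzd1 had 1 leading peak in replicate 1 alone and 0 in replicate 2 alone. Fzd7 had 1 peak of 32.1, 370 bp upstream (chr1:59481806-59482301), with 16.7 in replicate 1 and 16.5 in replicate 2. Fzd5 and Fzd8 had 1 distal peak each. That of Fzd5, a receptor needed for yolk sac vessels in mice, had a signal of 28.0 and lay 55312 bp upstream in an exon of Plekhm3, with 18.9 in replicate 1 and 7.05 in replicate 2. That of Fzd8, whose extracellular domain has been crystallised with a Wnt, had 27.1 at 25393 bp upstream, with 15.3 in replicate 1 and 11.4 in replicate 2. Stronger peaks of 38.0 and 38.6 lay nearest to Fzd8 at 171471 and 566706 bp, beyond the limit.

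Both co-receptors had distal peaks and no promoter peak. Lrp5, known for its role in bone mass and retinal vessels, had 2 intronic peaks. The stronger, of 49.0 (rank 3282; chr19:3665500-3665995), lay 20808 bp downstream of the TSS, with 24.2 in replicate 1 and 21.5 in replicate 2, and it is the window printed above with a TCF/LEF match. The other, of 28.3 at 17229 bp, had 15.6 in replicate 1 and no summit within 100 bp in replicate 2. Lrp6, the other co-receptor and the main one in the mouse embryo, had a peak of 27.0 located 28024 bp upstream (chr6:134594741-134595236), with 16.9 in replicate 1 and 9.58 in replicate 2. Replicate 1 alone gave Lrp6 3 leading peaks and replicate 2 alone gave 1. A peak of 33.8 inside the Lrp6 gene lay nearest to the TSS of Bcl2l14 and was not assigned to Lrp6.

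Axin2 had 2 promoter calls and 1 distal peak. The stronger promoter call, of 49.1 (rank 3273; chr11:108920284-108920779), had its summit 183 bp downstream of the first TSS, in the first exon. Replicate 2 held it at 31.2 (rank 1328), while the summit of replicate 1 lay at the second call, of 12.6 in the first intron, with 15.3 (rank 13465). Replicate 2 gave that second summit 7.57. The distal peak, of 23.2 at 57460 bp, had 21.1 in replicate 1 and no summit within 100 bp in replicate 2. Beyond it, at 88689 bp (chr11:109011622-109012117), the pooled list held a stronger call of 58.9 (rank 2070 there) that stands in neither IDR list, although both replicates held it, at 28.5 (rank 3540) and 21.3 (rank 3716). Why the call is in neither list was not tested.

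Of the TCF/LEF factors, Tcf7l1 and Tcf7l2 had peaks, and Lef1 and Tcf7 had none. Tcf7l1, which acts largely as a repressor, had 1 promoter peak of 32.0, 229 bp upstream (chr6:72789235-72789730), with 7.78 (rank 57572) in replicate 1 and 17.2 (rank 6165) in replicate 2. Single replicates gave it more, with 4 leading peaks in replicate 1 alone and 5 in replicate 2 alone. Another 6 peaks, with signals between 22.4 and 38.8, lay inside the Tcf7l1 gene but nearer to the TSS of its neighbour Tgoln1, so the rule gave them to Tgoln1. Tcf7l2, the factor best known from the gut and from diabetes genetics in people, had 3 peaks, all in its introns. The strongest, of 25.4 (chr19:55838945-55839440), had 10.6 in replicate 1 and 12.3 in replicate 2. The pair of overlapping calls 4548 and 4805 bp downstream of a TSS had 10.4 and 12.0, with 6.07 (rank 120031) and 5.15 (rank 194613) in replicate 1 and no summit within 100 bp in replicate 2. This was the only one of the 23 sites that was among the leading peaks of neither replicate. Tcf7l2 had 0 leading peaks in replicate 1 alone and 3 in replicate 2 alone. The strongest peak with Tcf7l2 as its nearest gene, of 90.6 (rank 549; chr19:55563253-55563748), lay in its neighbour Vti1a, 178319 bp from the Tcf7l2 TSS and so outside the rule, with 36.8 in replicate 1 and 50.1 in replicate 2.

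No optimal peak was assigned to 21 members: Wnt1, Wnt2, Wnt3, Wnt3a, Wnt4, Wnt5a, Wnt5b, Wnt6, Wnt7a, Wnt8a, Wnt9b, Wnt10a, Wnt10b, Wnt16, Fzd2, Fzd3, Fzd6, Fzd9, Fzd10, Lef1 and Tcf7. Ligands known from other organs stood on both sides. Wnt1 of the midbrain, Wnt9b of the kidney and Wnt3a of the tail bud are among these 21. Wnt7b, Wnt8b and Wnt9a, also described above from other organs, had peaks. Wnt5a, a ligand of the outflow tract that acts mainly without β-catenin, is among the 21 as well. The pooled list, which holds 300000 calls of any strength, had no call at all for Wnt1, Wnt6 and Wnt9b, or 8.33% of members, against 12.4% of all genes. Each of these 3 lies next to another Wnt gene. The closest start sites were 11707 bp apart for Wnt1 and Wnt10b, 19624 bp for Wnt6 and Wnt10a, and 24329 bp for Wnt9b and Wnt3. The DNA nearest to their start sites spanned 14.9 kb for Wnt1, 21.1 kb for Wnt6 and 38.1 kb for Wnt9b. Wnt10b, with 13.9 kb, did have a pooled call. Whether this length bears on the missing calls was not tested. For 13 of the other members without a peak the strongest pooled call had a signal under 16.

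For the remaining 5 members without an optimal peak the strongest pooled call had a signal of 16 or more. The optimal list is not a cut by signal, since it reaches down to 6.91. Wnt5a had a pooled call of 31.6 located 87480 bp upstream (chr14:28417022-28417517), with 15.2 in replicate 1 and 12.9 in replicate 2, and it stands in the conservative list. Wnt5b, a close relative of Wnt5a, had a conservative peak of 21.9 at 28038 bp upstream. Lef1, a TCF/LEF factor of hair and teeth that mostly activates, had a pooled call of 17.7, Wnt10a, a ligand of teeth and skin, of 19.7, and Fzd6, which orients hair follicles in mice, of 19.6 at 91 bp from its TSS. Of pooled calls with a −log10 q of at least 2, 2 of 20 assigned to members (10%) overlapped no optimal peak, those of Axin2 and Wnt5a, against 6.80% over all genes.

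The conservative list gave a similar picture with some exchanges. It held 33 peaks at 15 members, 25 of which overlapped an optimal peak. Wnt5a and Wnt5b had conservative peaks only, and Fzd5 and Wnt2b had optimal peaks only. Among the 8 conservative peaks without an optimal partner were also a Tcf7l2 promoter call of 9.36 at 100 bp from a TSS, a pair in Lrp5 (25.0 and 11.0) and a pair at Tcf7l1 (21.0 and 19.9). From the other side, 23 of 30 optimal member peaks (76.7%) overlapped a conservative one, against 73.8% of all assigned peaks.

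The median distance from start sites was larger for the members' 30 peaks than for assigned peaks in general, but no interval was computed for it. The DNA nearest to start sites spanned 3.89 Mb for the 36 members and 1602 Mb for all 21829 genes. Whether that length bears on the distances was not tested. The median distance was 19467 bp, against 5260 bp over all assigned peaks, and among distal peaks alone 28409 bp against 17907 bp. Promoter-proximal were 9 of 30 member peaks, or 30% (95% exact Clopper-Pearson interval 14.7% to 49.4%), against 37.3% of all assigned peaks, which lies inside that interval. Of the 21 distal member peaks 11 lay upstream and 10 downstream, against 4190 upstream and 5570 downstream over all assigned peaks. The promoter peaks belonged to Fzd4 (3 calls), Fzd1 (2), Axin2 (2), Fzd7 and Tcf7l1. Their median signal was 32.4 and that of the distal peaks 28.3, while over all assigned peaks both classes had a median of 30.6. The members' promoter calls ran from 7.86 to 96.1, both at Fzd4. Calls of one site were counted separately in these medians, and no interval was computed for them.

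**Figure D2:**
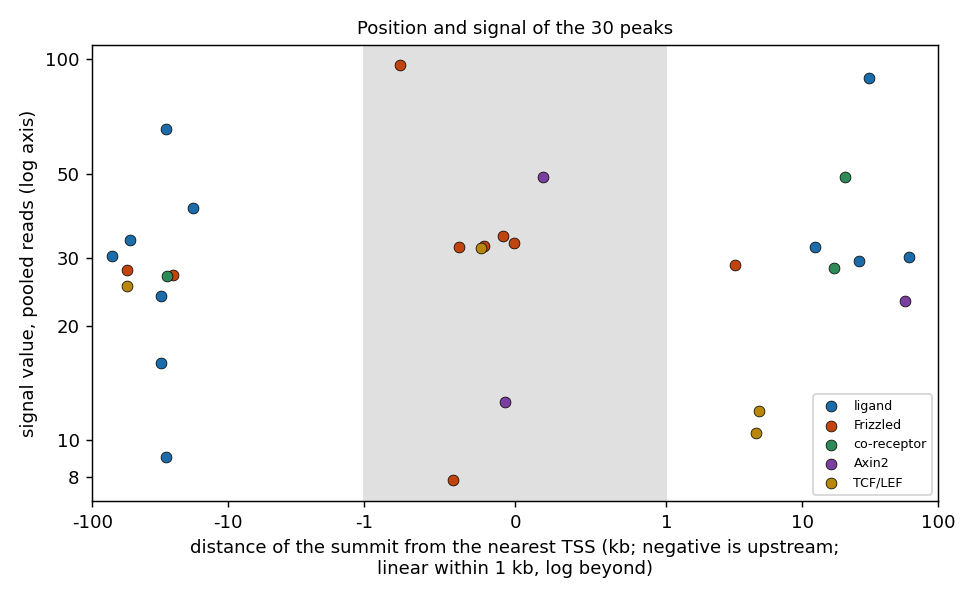
Each point is 1 of the 30 peaks, placed by the signed distance of its summit from the nearest TSS in kb (horizontal axis, linear within 1 kb and log beyond; negative is upstream) and by signal (vertical log axis), coloured by role. The grey band marks the 9 promoter-proximal peaks, 6 of them Frizzled; all 11 ligand peaks lie outside it, 18126 bp upstream or 12507 bp downstream at the nearest.

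Both replicates were asked for each member peak, by a summit within 100 bp among the leading peaks of each, as many by signal as the optimal list holds. Replicate 1 held 21 of 30 (70%, against 65.2% of all assigned peaks) and replicate 2 held 14 of 30 (46.7%, against 55.2%). Both held 10 of 30, or 33.3% (95% exact Clopper-Pearson interval 17.3% to 52.8%), against 40.2%. These 10 were the peaks of Wnt9a, Wnt8b, Fzd7 and Fzd8, 2 each of Wnt7b and Wnt11, and the strongest of Fzd4 and Lrp5. Counted by site, in which calls of one place are joined, replicate 1 held 19 of 23, replicate 2 held 14 and both held 11 (47.8%, against 51.5% of all sites). Because the optimal list was made from the same reads, this is no independent measure of agreement.

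**Figure D3:**
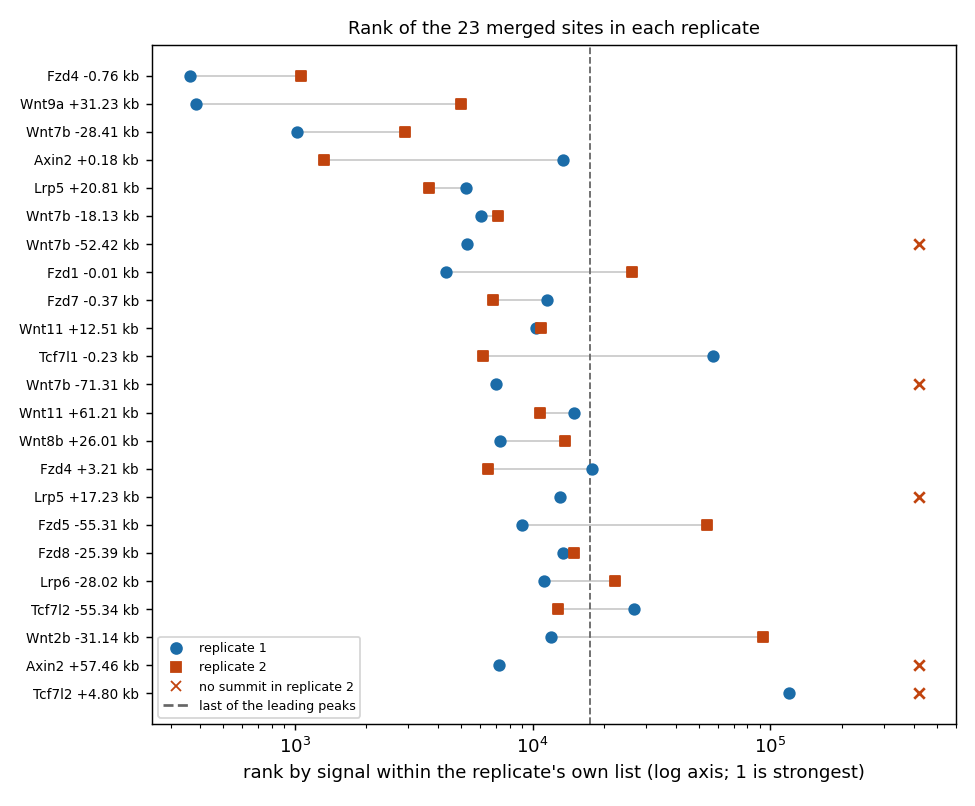
Each row is 1 of the 23 merged sites, named by gene and distance of the strongest summit from the TSS, ordered by pooled signal. Circles give its rank by signal in replicate 1 and squares in replicate 2 (log axis, rank 1 is strongest; crosses, no summit in replicate 2), and the dashed line is the last of the leading peaks; the Fzd4, Wnt9a and Wnt7b sites at the top lie left of the line in both, while 5 sites have no summit in replicate 2.

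Among the promoter sites the order of the libraries was not the same throughout. The Tcf7l1 promoter (ranks 57572 in replicate 1 and 6165 in replicate 2) and the Axin2 promoter (13465 and 1328) ranked higher in replicate 2, while the Fzd1 promoter (4309 and 26228) and the Fzd4 promoter (361 and 1066) ranked higher in replicate 1. All 23 sites had some summit in the full list of replicate 1 and 18 in that of replicate 2. The 5 missing from replicate 2 belonged to Wnt7b (2 sites), Lrp5, Axin2 and Tcf7l2. Counted by peak, 27 of 30 had a summit in the full list of replicate 1 (90%, against 86.5% of all assigned peaks). In the full list of replicate 2 it was 22 of 30 (73.3%, against 75.8%).

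Short motifs were searched on both strands in the 200 bp around each summit. The TCF/LEF motif was CTTTGAT or the same with A as its last letter. Of factors known from heart muscle, the motif AGATAA stood for the family of Gata4, GGAATG for the TEAD partners of YAP, and TATTTNTAG for the MEF2 factors. The class of E-box searched, CAGCTG, is bound by basic helix-loop-helix pairs and reads the same on both strands. The ETS motif of endothelial genes was CAGGAAGT, the motif of SOX factors was CATTGTT, and that of the AP-1 factors, which respond to growth signals, was TGANTCA. No match in the members' windows overlapped a match to another motif. A TCF/LEF match was in 2 of 30 member windows, or 6.67% (95% exact Clopper-Pearson interval 0.818% to 22.1%), against 5.40% of all assigned peaks. The matches were the form CTTTGAA in the second Axin2 promoter window, 57 bp past the summit, and its reverse complement, printed in capitals in the Lrp5 line, 13 bp before the summit of the strongest Lrp5 peak. A match is a run of letters and not a bound site.

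For each of the other motifs the share over all assigned peaks lay inside the members' 95% exact interval, which is wide at 30 windows. The E-box was in 6 of 30 (20%, against 17.3% of all assigned peaks), TEAD in 3 (10%, against 14.5%), and GATA (6.67%, against 12.3%), ETS (6.67%, against 4.23%) and AP-1 (6.67%, against 7.07%) in 2 each. SOX was in 1 (3.33%, against 3.62%) and MEF2 in 1 (3.33%, against 3.28%). The Wnt8b window printed above held 3 E-boxes on 1 side of the summit and a GATA match across it, and 34 of all 15570 windows (0.218%) held 3 or more E-boxes. TEAD matches lay in both Wnt11 windows and, as a pair, in that of Fzd5. Base composition differed little, with a median of 60.5% G and C in promoter windows of members, against 62.0% over all, and 52% in distal ones, against 51.0%.

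Promoter sequences of RefSeq (GRCm38.p6), which run over 250 bases before and 50 after a gene's start, were matched by symbol for 26 of the 36 members, with 34 promoters. A TCF/LEF match was in 2 of them, those of Wnt5b and Wnt11 (5.88%, against 8.65% of 32851 promoters). Neither gene had an EP300 peak at its promoter.

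The wider pathway was described from 54 further genes, listed by role. Of these 30 had a peak, 80 peaks in all, or 55.6% (95% exact Clopper-Pearson interval 41.4% to 69.1%), against 31.9% of all protein-coding genes. A promoter peak was assigned to 10 (18.5%), near the 19.0% of all genes. Peaks per megabase were not computed for these lists, so the length of DNA near their start sites is not taken into account. The lists were also chosen with earlier results of these data known. The share with a peak was highest in the cytoplasmic relay and destruction complex, at 12 of 14 genes (85.7%, interval 57.2% to 98.2%). A promoter peak was assigned to 7 of the 14 (50%). There Ctnnb1, β-catenin itself, and Ctnnbip1, which blocks β-catenin from TCF factors, had 5 peaks each, and Csnk1a1, a kinase of the destruction complex, had 3. Nuclear cofactors had peaks at 6 of 8 genes (75%, interval 34.9% to 96.8%) and promoter peaks at 3, led by the co-repressor Tle3 with 7 and by the β-catenin partners Bcl9l with 6 and Bcl9 with 5.

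For genes of secreted and surface proteins the shares were nearer to the background. Inhibitors had peaks at 7 of 18 genes and no promoter peak, with 3 at Sfrp1, a decoy that binds Wnt, and 2 each at Dkk3, of the Dickkopf family, and Sost, which blocks Lrp5 and Lrp6. Among agonists and their receptors 2 of 8 had peaks, Lgr4 with 3 and Lgr6 with 2, both receptors of R-spondins, and none of the R-spondin genes had one. Of the secretion genes, Wls, which carries Wnt to the cell surface, had 3, and Porcn, which attaches the lipid, had none. Alternative receptors had peaks at 2 of 4 genes, with 3 at Ryk, whose strongest reached 96.0, and 2 at Ror1. The 31.9% of all genes lay inside the intervals of the ligands (5 of 19, 26.3%, 9.15% to 51.2%), of the agonists and their receptors (25%, 3.19% to 65.1%) and of the inhibitors (38.9%, 17.3% to 64.2%). No difference between roles was tested.

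**Figure D4:**
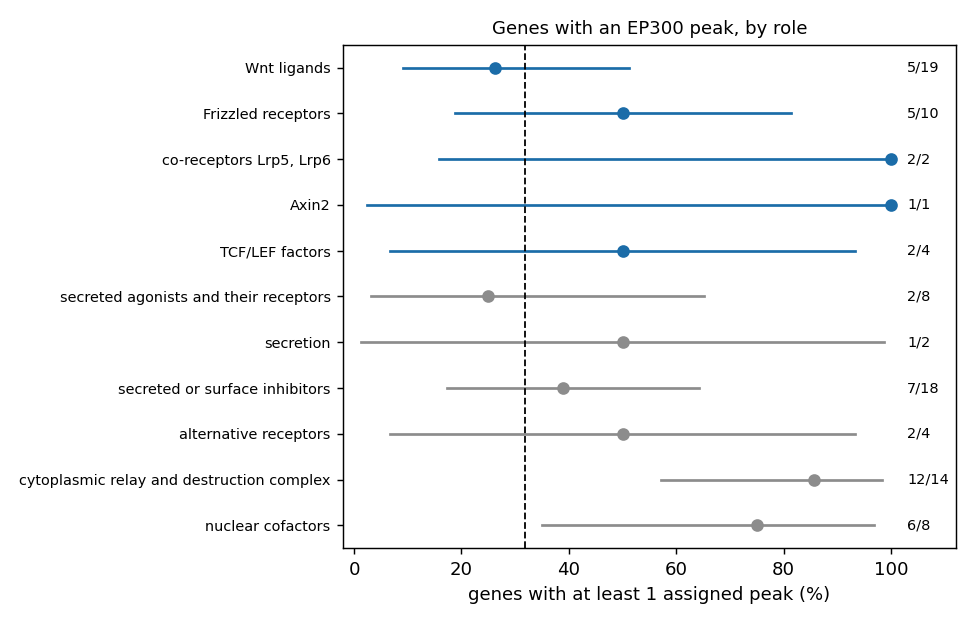
Points give the percentage of genes of each role with at least 1 assigned peak, bars the 95% exact Clopper-Pearson interval, and numbers the genes with a peak of all genes in the list (blue, members; grey, other genes of the pathway). The dashed line is the 31.9% of all protein-coding genes. The relay and destruction complex (12/14) and the nuclear cofactors (6/8) lie right of it with their whole intervals. The length of DNA near the genes is not taken into account.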

How the data were processed

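EP300 ChIP-seq of newborn heart (2 libraries) was analysed from 5 peak lists on mm10. Control files numbered 2 for replicate 1 and for the pooled reads and 1 for replicate 2, per the file headers, and optimal and conservative lists were taken by irreproducible discovery rate (IDR). Aligner, peak caller and IDR cut-off: not given in the sources used here. The deposited columns are a signal value, the −log10 of a q-value and, in IDR lists, a score of at most 1000. Left out were 33 mitochondrial or unplaced optimal peaks. Summits were assigned to the nearest of 54361 TSSs (GENCODE M21) within 100 kb. Each peak's replicate signal is that of the replicate's strongest call with a summit within 100 bp. Named are all members, tissue markers with a peak, the 3 genes with most peaks per role list of the wider pathway, and sequences of the strongest peak per role. Members, lists and tests were chosen with earlier results of these data known. Alternatives were other distances, TSS sets, lists, thresholds, motif windows, merged sites and single replicates. Functions were tested on simulated data. Tools were pysam 0.24.0, SciPy 1.17.1, pandas 2.3.3, numpy 2.4.6, matplotlib 3.10.9 and Python 3.11.15.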

Additional observations from a re-analysis of the deposited data

How the results depend on the processing

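The counts of peaks and of members with a peak stayed within 1.5 times of the reported ones under other assignment distances, TSS sets, lists and merging. Of the exceptions, 18 peaks reached a −log10 q of at least 2. The share of peaks found in both replicates, 33.3%, was 53.3% when summits could lie as far apart as a peak's middle and edge, 56.7% with any overlap of intervals and 16.7% with 10000 leading peaks. The share over all assigned peaks was not computed under these settings, so whether the members differ there is not known. The shorter TCF/LEF core CTTTG followed by A or T was in 40% of member windows, against 23.0% of all assigned windows. The exact Clopper-Pearson interval of the 40% ran from 22.7% to 59.4%, so the 23.0% lay inside it, close to its lower end. That interval takes the windows as independent, which neighbouring calls of one site are not. With a single replicate's leading peaks the members had 32 to 34 peaks at 15 to 17 of 36 genes, and 28 to 33 of the 54 other pathway genes had a peak. Of all protein-coding genes 35.0% had a peak from replicate 1 alone and 33.0% from replicate 2 alone. The members' promoter share was 17.6% to 21.9%, against 30% from the pooled reads. The promoter share over all assigned peaks was not computed for single replicates. Replicate 2 alone gave Fzd1 no peak, and replicate 1 alone gave Tcf7l2 none. Counting peaks inside a member's gene whatever the nearest TSS, an alternative chosen after seeing the data, gave 37 peaks at 15 members. The cause of these shifts was not tested. No paired analysis was possible because there was only 1 group. Depth is unknown, so a missing peak means only that none was listed.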
